A study of Arabidopsis thaliana with 20 samples.

Results

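SWEET1, SWEET2 and ATSPS4F are 3 Arabidopsis genes of sugar movement and sucrose synthesis. They were taken by their gene symbols in the platform's annotation, each has 1 probe set, and they are 3 of 13356 named genes. SWEET1 is AT1G21460 on chromosome 1, SWEET2 is AT3G14770 on chromosome 3 and ATSPS4F is AT4G10120 on chromosome 4.

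SWEET proteins are membrane carriers that let sugars move down their own gradient. SWEET1 carries glucose across the plasma membrane, and SWEET2 lies in the vacuolar membrane and carries a glucose analogue. ATSPS4F is a sucrose-phosphate synthase, which joins UDP-glucose and fructose 6-phosphate into sucrose phosphate, the committed step of sucrose synthesis. Plants gather sucrose and other soluble sugars as they acclimate to cold, and sugars are exchanged between cytosol, vacuole and apoplast as they do.

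The study followed transcript amount and stability through a cold treatment in T87, a suspension line of dividing Arabidopsis cells of the Columbia accession (Col-0). The control cells stayed at 22 °C in constant light of 80 µmol per square metre and second. The cold cells spent 6, 12, 24 or 36 h at 4 °C in dim light of 40 µmol before cordycepin, an analogue of adenosine that stops RNA chains from growing, was added. Total RNA went onto Affymetrix ATH1 arrays before cordycepin (0 h), after 0.5, 2 and 4 h of it at 22 °C, and after 4, 8 and 12 h of it in the cold. This gives 20 arrays in 5 series of 4, with 1 array per condition and no replicates. The growth protocol lists 12, 24 and 36 h of cold, and the titles and design text also list 6 h. Temperature, light and time in culture change together and cannot be told apart. In a bulk culture, fewer cells of a kind and less RNA per cell cannot be told apart either.

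The deposited RMA intensities were put on a log2 scale. Array medians lay between 50.32 and 68.59 in linear intensity. They were lowest at the end of the 22 °C cordycepin course, 50.3 against 64.4 at its start, and from 60.02 to 68.6 in the cold. Because the arrays were normalised to each other, a change during cordycepin is measured against the rest of the transcripts on the same array. Of 10 marker genes of differentiated cells, 2 are named by the platform annotation. The root hair gene EXPA7 had at most log2 4.48 and the stomatal gene FMA at most 4.19, both under the table median of 5.94 on all 20 arrays. The cold-induced gene COR47 was at 5.32 to 5.91 at 22 °C and at 10.8 to 13.7 in the cold, and all 16 cold arrays were above all 4 arrays from 22 °C.

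Genes were tested when they reached the table median on 2 or more of the 20 arrays, which 6962 did. SWEET1 reached it on 18 arrays, of which 2 were from 22 °C and 16 from the cold. SWEET2 reached it on 7 arrays and ATSPS4F on 9, all from the cold, so both passed only through the condition in which they are high. Their levels at 22 °C lie in the dim range of the array, SWEET2 between the percentiles 13.8 and 29.5 of its arrays and ATSPS4F between 17.2 and 35.9.

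SWEET1, the plasma-membrane glucose carrier, was at log2 5.21 before cordycepin at 22 °C, and at 5.92, 6.30 and 6.21 after 0.5, 2 and 4 h of it. In the series begun after 6 h of cold it was at 6.95, 6.49, 6.39 and 6.70 at 0, 4, 8 and 12 h of cordycepin. In the 12 h cold series it was at 6.23, 6.39, 6.57 and 6.63. The untreated 22 °C array was the lowest of all 20, and the untreated 6 h cold array was the highest. After 24 h of cold SWEET1 was at 6.41, 6.45, 6.88 and 6.72, and after 36 h at 6.14, 6.70, 6.58 and 6.89. Of the 16 cold arrays, 14 were above all arrays from 22 °C. The other two, the untreated arrays of the 12 h and 36 h series, lay below the 22 °C array at 2 h of cordycepin. Once cordycepin had acted for 2 to 4 h at 22 °C, SWEET1 stood close to the lower cold arrays.

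SWEET2, the vacuolar carrier, was at log2 4.12 before cordycepin at 22 °C, and at 4.22, 4.29 and 3.73 after 0.5, 2 and 4 h of it. In the 6 h cold series it was at 4.39, 5.61, 5.25 and 5.64 at 0, 4, 8 and 12 h of cordycepin. In the 12 h cold series it was at 6.47, 6.46, 6.12 and 5.26. The 6 h cold cells thus held little more SWEET2 signal than the 22 °C cells before cordycepin, and the 12 h cold cells held the most. In the 24 h cold series SWEET2 was at 6.41, 5.98, 5.80 and 5.73, and in the 36 h series at 5.97, 6.05, 5.51 and 5.51. All 16 cold arrays were above all 4 arrays from 22 °C. SWEET2 was the 1 gene of the 3 whose groups did not overlap, against 7.2% of the 6962 genes with all cold arrays above all 22 °C arrays. It passed the filter only through its cold arrays, which favours this outcome, so the count is a description.

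ATSPS4F, the sucrose-phosphate synthase, was at log2 4.46 before cordycepin at 22 °C, and at 3.87, 3.84 and 4.81 after 0.5, 2 and 4 h of it. In the 6 h cold series it was at 4.55, 4.39, 6.34 and 7.73 at 0, 4, 8 and 12 h of cordycepin. In the 12 h cold series it was at 8.02, 5.32, 5.92 and 4.46. The first of these cold series began at the 22 °C level and ended near the top of the gene's range, and the second ran the other way. In the 24 h cold series ATSPS4F was at 7.30, 7.39, 6.54 and 7.64, and in the 36 h series at 6.44, 5.92, 6.26 and 5.76. Of the 16 cold arrays, 13 were above all arrays from 22 °C. The exceptions were the 6 h cold arrays at 0 and 4 h of cordycepin and the 12 h cold array at 12 h.

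**Figure D1:**
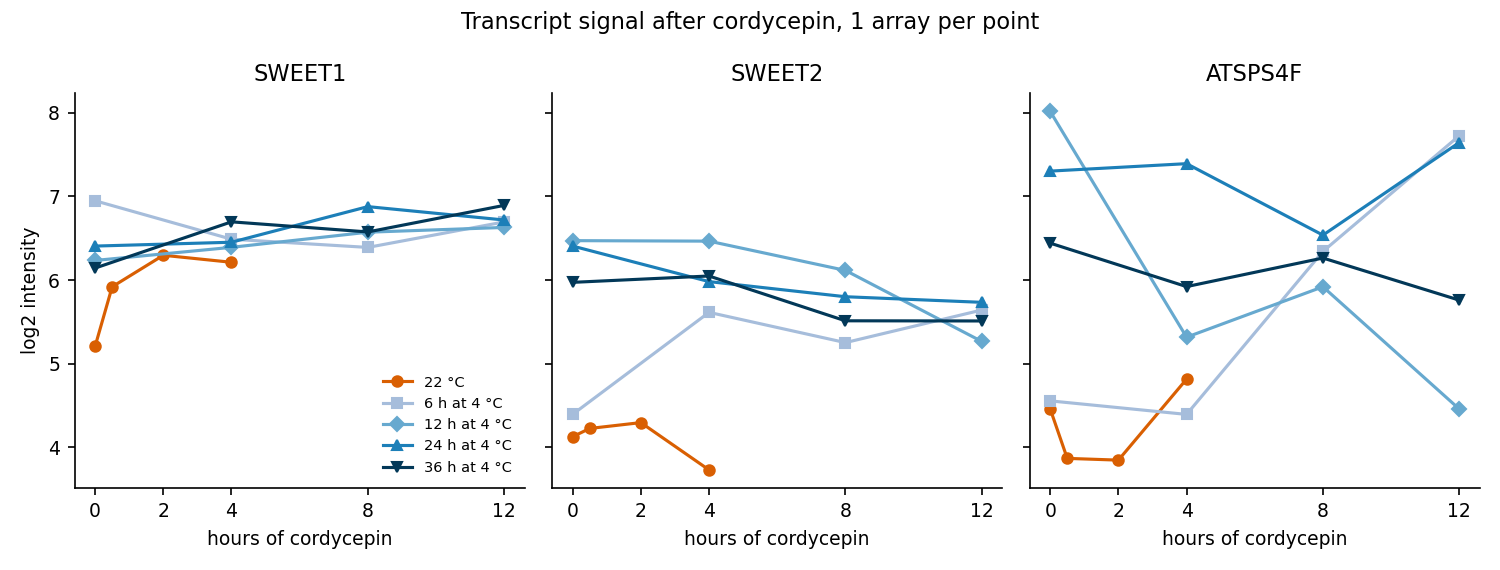
Log2 intensity of SWEET1, SWEET2 and ATSPS4F (y axis) against hours of cordycepin (x axis) in the 22 °C series and the 4 cold series, 1 array per point and no error bar. SWEET1 spans 5.21 to 6.95, SWEET2 3.73 to 6.47 and ATSPS4F 3.84 to 8.02, and the 6 h and 12 h cold lines of ATSPS4F cross.

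Before cordycepin, the cold arrays lay above the 22 °C array for each of the 3 genes, by amounts that differed from one cold array to the next. These are differences of 1 array against 1, with no test. SWEET1 was 3.34-fold higher after 6 h of cold, 2.04-fold after 12 h, 2.30-fold after 24 h and 1.91-fold after 36 h. SWEET2 was 1.20-fold higher after 6 h, 5.09-fold after 12 h, 4.86-fold after 24 h and 3.60-fold after 36 h. ATSPS4F was 1.07-fold higher after 6 h, 11.8-fold after 12 h, 7.19-fold after 24 h and 3.96-fold after 36 h. The 22 °C levels of SWEET2 and ATSPS4F are not shown to be above background, since they lie close to those of EXPA7 and FMA, so folds over them here and below depend on that dim level. The glucose carrier of the plasma membrane was highest on the earliest cold array, and the other two genes on the 12 h array.

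The first test set the 4 cold arrays before cordycepin against the lone 22 °C array in limma, with 3 residual degrees of freedom, so that change with cold duration counts as error. It called 0 of the 3 genes, against 0.101% of all genes called higher. The mean log2 difference was 1.23 ± 0.35 (SE) for SWEET1 (limma adjusted p = 0.480, 95% interval 0.36 to 2.10). It was 1.69 ± 0.81 for SWEET2 (limma adjusted p = 0.573, interval −0.30 to 3.67) and 2.12 ± 1.22 for ATSPS4F (limma adjusted p = 0.591, interval −0.87 to 5.12). At an unadjusted p under 0.05, 1 of the 3 genes and 618 of all genes would pass. Without a variance trend eBayes called 0 of all 6962 genes, these 3 included. Without the 6 h cold array the SWEET2 difference was 2.16. SWEET2 passed the filter only through arrays of the later cold series, and the untreated arrays of those series all stayed in that fit. The filter thus favours a larger difference there, and the value is a description.

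The second test drew a line through the 4 arrays of each series in 1 limma fit to all 20 arrays, and the distance of the arrays from these lines gives the error (10 residual degrees of freedom). The height of a line at 0 h is called the fitted start. The mean fitted start of the cold series was above that at 22 °C for 3 of 3 genes, against 25.2% of all genes called higher and 37.3% called lower. SWEET2 and ATSPS4F were tested only because of their cold arrays, so the filter favours this direction for them and the count is a description. The log2 difference was 0.85 ± 0.19 (SE) for SWEET1, or 1.80-fold (limma adjusted p = 0.00146). It was 1.68 ± 0.22 for SWEET2, or 3.20-fold (limma adjusted p = 2.46e-05). It was 2.22 ± 0.45 for ATSPS4F, or 4.67-fold (limma adjusted p = 7.96e-04). The SWEET1 call rested on the untreated 22 °C array, without which the difference was 0.44 (limma adjusted p = 0.0543). The median over all genes was −0.11. Centring each array on 7 reference genes moved that median to 0.22 and turned the split of calls from 1755 higher and 2597 lower to 3088 and 794. The differences of SWEET1, SWEET2 and ATSPS4F were then 1.18, 2.01 and 2.56 and stayed past the threshold. Centring adds the same amount to this difference for every gene, so it is no separate check of these 3. As deposited, 6 of the 7 reference genes were themselves called lower in the cold, with a median of −0.30.

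The fitted starts depended on cold duration for SWEET2 and ATSPS4F, 2 of the 3 genes, against 35.4% of all genes. Both genes were tested only because of their cold arrays, for SWEET2 those of the 12, 24 and 36 h series alone. The filter thus drew on the values compared here, and the count is a description. For SWEET1 the fitted starts ran from 5.57 ± 0.16 (SE) at 22 °C through 6.25, 6.26 and 6.41 in the 12, 36 and 24 h series to 6.76 in the 6 h series, each cold value ± 0.19. The 95% intervals of neighbours in that order overlapped, and the range of 0.51 among the cold series did not pass (limma F test, adjusted p = 0.337). For SWEET2 the order was 4.26 ± 0.19 at 22 °C, 4.72 after 6 h, 6.05 after 36 h, 6.31 after 24 h and 6.67 after 12 h, each cold value ± 0.22. The one gap between neighbours whose intervals did not overlap was that between 6 h and 36 h. The range among the cold series was 1.96 (limma F test, adjusted p = 0.00146), and it was 1.20 without the untreated 6 h cold array (adjusted p = 0.132).

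For ATSPS4F the fitted starts were 4.03 ± 0.39 at 22 °C, 4.03 after 6 h, 6.35 after 36 h, 7.19 after 24 h and 7.44 after 12 h, each cold value ± 0.45. Again the intervals of neighbours overlapped, except between 6 h and 36 h. The range among the cold series was 3.41, or 10.6-fold (limma F test, adjusted p = 0.00333). It stayed between 2.96 and 4.62 when each array was left out in turn, with an adjusted p of at most 0.0139.

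**Figure D2:**
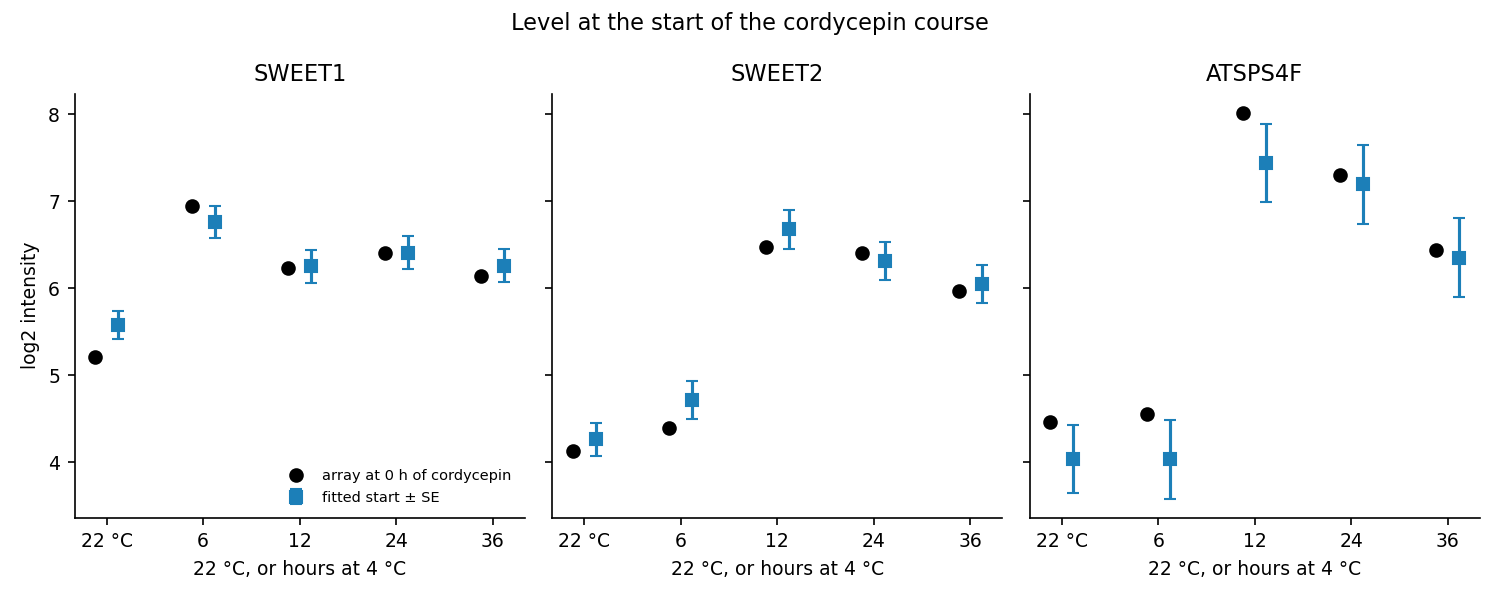
Level of each gene at the start of the cordycepin course (y axis, log2 intensity) at 22 °C and by hours at 4 °C (x axis). Black points are the single arrays at 0 h, and blue squares with bars are fitted starts ± SE from the limma line fit. The fitted starts of SWEET2 and ATSPS4F lie near their 22 °C level at 6 h and at 6.05 or more from 12 h on, and SWEET1 is highest at 6 h.

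After cordycepin at 22 °C, SWEET1 rose relative to the other transcripts. Its slope was 0.21 ± 0.07 log2 units per hour (SE; limma adjusted p = 0.0225), 1 of 3 genes, against 23.6% of all genes rising and 38.5% falling. The untreated 22 °C array carried this call, and without it the slope was 0.08 (adjusted p = 0.379). The slope of SWEET2 was −0.10 ± 0.08 (limma adjusted p = 0.305) and that of ATSPS4F was 0.13 ± 0.17 (adjusted p = 0.522), both with intervals that hold 0. The SWEET2 slope was 0.08 and the ATSPS4F slope −0.24 without the 22 °C array at 4 h of cordycepin. If instead the 95th percentile slope of each series is set to zero, to stand for the most stable transcripts, SWEET1 had −0.07, SWEET2 −0.38 and ATSPS4F −0.14 at 22 °C. Of these anchored slopes that of SWEET2 passed (limma adjusted p = 6.96e-04), 1 of 3 genes, against 5952 of all 6962 genes falling and 73 rising.

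In the cold series SWEET1 was nearly flat, with slopes of −0.02 after 6 h, 0.03 after 12 and after 24 h and 0.05 after 36 h (each ± 0.03, limma adjusted p from 0.273 to 0.614). The mean of the cold slopes less that at 22 °C was −0.18 ± 0.07 (SE) for SWEET1 (limma adjusted p = 0.0455, interval −0.34 to −0.02). It was the 1 call among the 3 genes, against 21.5% of all genes lower and 37% higher. This call was lost without any of 12 of the 20 arrays, by a wide margin only without the untreated 22 °C array (−0.05, adjusted p = 0.565). The other 11 gave −0.16 to −0.18 with adjusted p from 0.0509 to 0.0603. The same difference was 0.07 ± 0.09 for SWEET2 (limma adjusted p = 0.480, interval −0.11 to 0.26) and −0.13 ± 0.18 for ATSPS4F (adjusted p = 0.533, interval −0.51 to 0.24). Over the first 4 h alone, the span both temperatures share, SWEET1 moved by 1.01 at 22 °C and by −0.46, 0.16, 0.05 and 0.55 after 6, 12, 24 and 36 h of cold. With anchored slopes the SWEET1 difference was 0.05, of the opposite sign.

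SWEET2 fell after cordycepin in the 12 h cold series, by 0.10 ± 0.03 log2 units per hour (limma adjusted p = 0.0331), a whole-course drop of 2.31-fold. Leaving out the array at 0, 4 or 12 h of that series gave slopes of −0.15, −0.09 and −0.04 that did not pass (adjusted p = 0.426, 0.0559 and 0.610). Over all genes, the 787 rising and 504 falling calls in this slope became 0 and 0, 701 and 456, and 2 and 8. Its slopes were −0.06 after 24 h of cold (adjusted p = 0.321) and −0.05 after 36 h (adjusted p = 0.391). In the 6 h cold series SWEET2 had 0.08 ± 0.03 (limma adjusted p = 0.0899), with most of the difference between the arrays at 0 and 4 h. Leaving out the array at 4 h there gave 0.10 (adjusted p = 0.0192). The spread of the 4 slopes, 0.18, did not pass the F test (limma adjusted p = 0.0683). It passed without the 22 °C array at 0 h (0.0319) or 4 h (0.0475) or the 6 h cold array at 4 h of cordycepin (0.0157). Leaving out a 22 °C array keeps the 4 cold slopes as they are and changes only the error estimate. Calls of this F test over all genes went from 193 to 806, 428 and 254 in those fits.

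ATSPS4F rose after cordycepin in the 6 h cold series and fell in the 12 h cold series. The slope was 0.29 ± 0.06 (SE) log2 units per hour after 6 h of cold (limma adjusted p = 0.0139), and the last array of that series was 9.02-fold above the first. The slope was −0.25 ± 0.06 after 12 h of cold (limma adjusted p = 0.0152), and the last array was 11.8-fold below the first. In the 24 h series the slope was 0.00 (adjusted p = 0.974) and in the 36 h series −0.04 (adjusted p = 0.735), each ± 0.06. The difference among the 4 slopes, a range of 0.54, passed the F test (limma adjusted p = 0.0260), 1 of 3 genes against 2.77% of all genes.

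Each ATSPS4F slope lost its call when either end array of its series was left out. The 6 h slope was 0.42 without the array at 0 h (limma adjusted p = 0.121) and 0.22 without that at 12 h of cordycepin (adjusted p = 0.364). The 12 h slope was −0.11 without the array at 0 h (adjusted p = 0.617) and −0.26 without that at 12 h (adjusted p = 0.169). Most calls over all genes were lost in the same fits. For the 6 h slope, 568 calls became 2 rising and 0 falling without the array at 0 h, and 58 and 12 without that at 12 h. For the 12 h slope, 1291 calls became 0 and 0, and 2 and 8. The F test lost its call without any of these 4 arrays or the untreated 24 h cold array, with adjusted p from 0.0564 to 0.181. The range stayed at 0.39 to 0.67. Over all genes, calls of the F test went from 193 to 0, 30, 27, 47 and 33 in those fits, in the order named. In all, slopes passed for 1 of 3 genes in the 6 h series, 2 of 3 in the 12 h series and 0 of 3 in the 24 h and 36 h series. The shares over all genes, in either direction, were 8.16%, 18.5%, 1.22% and 0.259%. At an unadjusted p under 0.05, 0 of the 3 genes would pass in the 24 h or 36 h series, against 1302 and 1279 of all genes. SWEET1 came closest, in the 36 h series (limma unadjusted p = 0.0513).

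ATSPS4F scattered widely about its lines. Its residual SD was 0.641 log2 units, larger than that of 99.4% of all genes. That of SWEET2 was 0.285 (88.9% of genes below) and that of SWEET1 was 0.246 (83.6% below), against a median of 0.140. In the 12 h cold series ATSPS4F had 8.02, then 5.32 at 4 h and 5.92 at 8 h of cordycepin, a course that a straight line does not follow. The cold-induced gene COR15A was read on the same arrays. In the 6 h cold series it was at 6.03, 7.98, 8.73 and 9.16, in the same direction as SWEET2 and ATSPS4F there. In the 12 h cold series it was at 10.6, 10.4, 10.7 and 10.7, where ATSPS4F fell. Its slope was 0.25 ± 0.03 in the 6 h series (limma adjusted p = 3.75e-04) and 0.01 ± 0.03 in the 12 h series (adjusted p = 0.786). Whether the ATSPS4F slope in the 6 h series has a part in common with that of COR15A was not tested.

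Cells sampled during cordycepin stayed at 4 °C, so some arrays share their total time in the cold and differ in the time of cordycepin. At 24 h in all, ATSPS4F was at 7.30 without cordycepin and at 4.46 when cordycepin had been present for the last 12 h. At the same time SWEET2 was at 6.41 without and 5.26 with cordycepin, and SWEET1 was at 6.41 without and 6.63 with it. At 36 h in all, the order of ATSPS4F was turned, 6.44 without and 7.64 with the last 12 h in cordycepin. SWEET2 was then at 5.97 without and 5.73 with cordycepin, and SWEET1 at 6.14 without and 6.72 with it. These are pairs of single arrays, with no test. SWEET2 was lower with cordycepin and SWEET1 higher in both pairs, and ATSPS4F was lower in one and higher in the other.

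**Figure D3:**
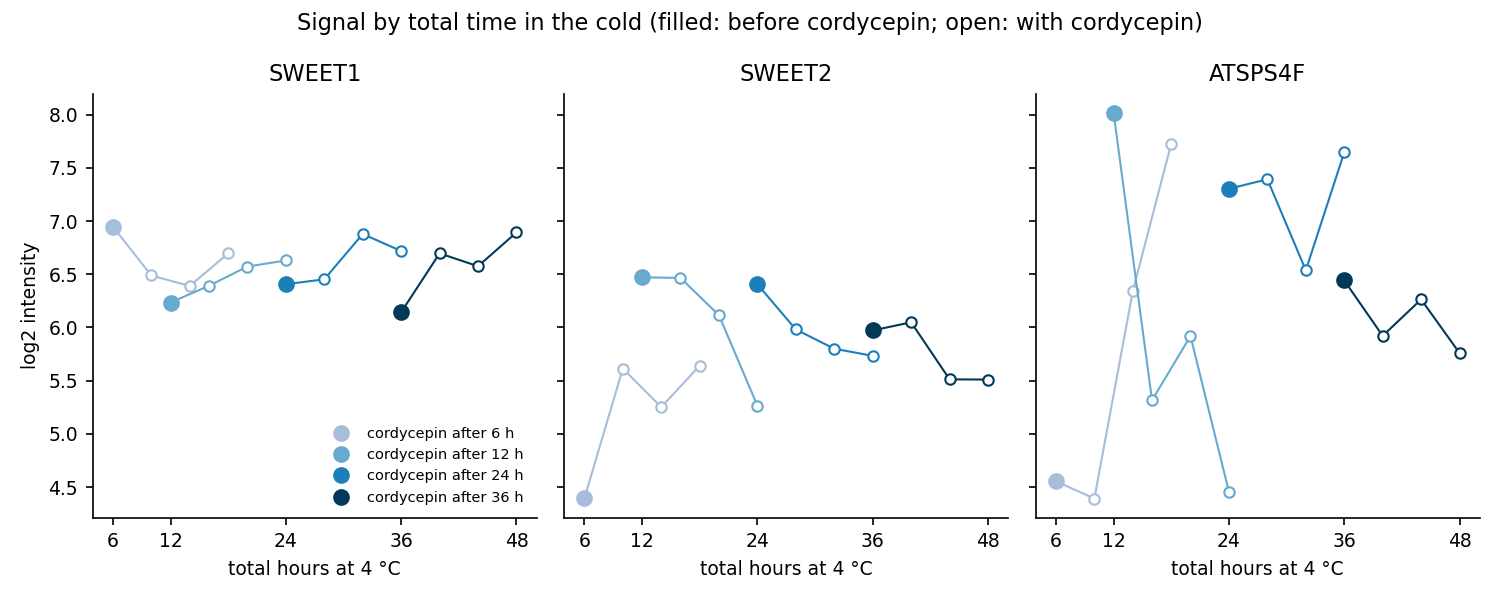
Log2 intensity (y axis) of each gene on the 16 cold arrays against total hours at 4 °C (x axis), with filled points before cordycepin and open points during it, 1 array per point. At 24 h in all, ATSPS4F is at 7.30 without and 4.46 with cordycepin, and at 36 h in all it is at 6.44 without and 7.64 with it.

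The 3 genes did not share 1 pattern. Over the 20 arrays Pearson's r was 0.705 between SWEET2 and ATSPS4F, 0.382 between SWEET1 and SWEET2 and 0.295 between SWEET1 and ATSPS4F. These are descriptions, since the arrays fall into a 22 °C and a cold group and share their normalisation. The genes most like ATSPS4F among those tested were AT2G22080 (r = 0.931), AT1G70900 (0.917) and AT1G22410 (0.910). AT2G22080 was at 7.49, 7.78, 8.23 and 8.77 in the 6 h cold series, and at 8.77, 8.03, 8.18 and 8.04 in the 12 h cold series. It thus went up in the first and down in the second, as ATSPS4F did, over a smaller range. It was picked for its correlation on these same arrays, so the shared course follows from the choice and is no separate evidence.

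The genes most like SWEET2 were AT1G64140 (r = 0.965), AT4G15430 (0.956) and AT4G32190 (0.955). AT4G15430 was at 5.21 to 5.37 at 22 °C, at 5.70 on the untreated 6 h cold array and at 7.84 after 4 h of cordycepin there. It was highest, at 8.67, on the untreated 12 h cold array, which was also the highest array of SWEET2. The genes most like SWEET1 were AT4G22212 (r = 0.834), AT4G30450 (0.827) and AT5G45350 (0.827). The first of these was at 4.07, 5.09 and 5.51 at 0, 0.5 and 2 h of cordycepin at 22 °C, where SWEET1 also stood higher with each of those times. The genes most like SWEET2 and SWEET1 were likewise picked on these arrays, so their likeness follows from the choice.

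**Figure D4:**
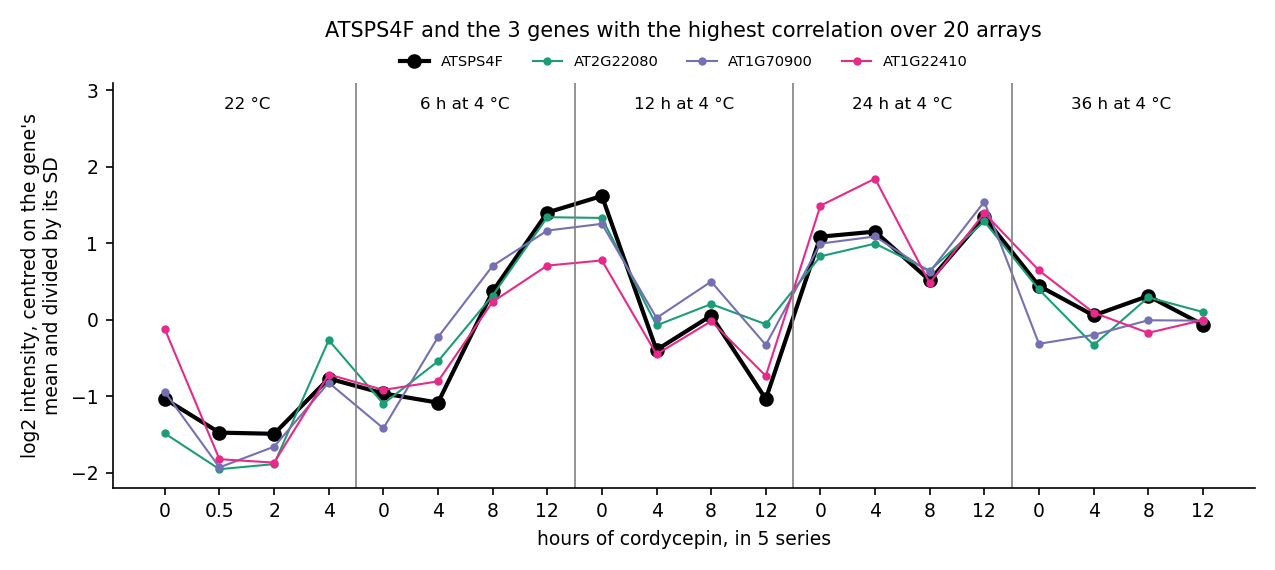
ATSPS4F and the 3 genes with the highest correlation to it over the 20 arrays, as log2 intensity centred on each gene's mean and divided by its SD (y axis), by series and hours of cordycepin (x axis), 1 array per point. All 4 lines end the 6 h cold series above their start, and are lower at the end of the 12 h cold series than at its start. The 3 genes were picked on these same arrays, so their likeness follows from the choice.

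The SWEET family has 17 listed genes, of which the platform annotation names 16. SWEET1 and SWEET2 were the only 2 past the filter, and the other 14 were under the table median on all 20 arrays. Tested without the filter, 0 of these 14 had a fitted start higher in the cold and 3 had a lower one. The shares over all genes without the filter were 14.2% higher and 23.7% lower. SWEET17, a vacuolar fructose carrier, had the largest difference, −0.73 ± 0.11 (SE; limma adjusted p = 1.12e-04), and SWEET11, a sucrose carrier, had −0.28. Centred on reference genes the count was 3 higher and 1 lower, with SWEET17 still lower (−0.39, limma adjusted p = 0.00847) and SWEET11 at 0.05. With quantile normalisation SWEET17 was the 1 gene called, at −0.83. All-gene shares without the filter are not given for these scalings. Of the 6962 filtered genes, 3088 were higher and 794 lower when centred, and 1587 and 2843 with quantile normalisation.

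After cordycepin at 22 °C, 9 of the 14 other SWEET genes rose relative to other transcripts and 1 fell, against 27.6% of all genes rising and 21.5% falling without the filter. The gene that fell was SWEET17, at 5.63, 5.73, 4.85 and 4.34 over 0, 0.5, 2 and 4 h, a slope of −0.36 ± 0.04 (limma adjusted p = 1.13e-05). The steepest rises were those of SWEET7 at 0.25 and SWEET11 at 0.22. In the cold SWEET17 stayed between 4.69 and 5.34. Its mean cold slope was 0.37 above that at 22 °C, the 1 gene of 14 higher, and 7 were lower, against 20.4% of all genes higher and 25% lower. With quantile normalisation 4 of the 14 rose at 22 °C, and with anchored slopes 0 rose and 10 fell. SWEET17 fell under each of these. The slope difference was then higher for 1 and lower for 4 with quantile normalisation, and higher for 6 and lower for 0 with anchored slopes, with SWEET17 among the higher ones in both. All-gene shares without the filter are not given for these scalings. Of the 6962 filtered genes, 2042 rose and 2000 fell at 22 °C with quantile normalisation, and 73 and 5952 anchored. Their slope differences were 1943 higher and 1855 lower with quantile normalisation, and 5541 and 99 anchored. The lower quartile of the arrays went from 14.9 to 18.8 in linear intensity over the same 4 h, and its part in the rises was not tested.

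**Figure D5:**
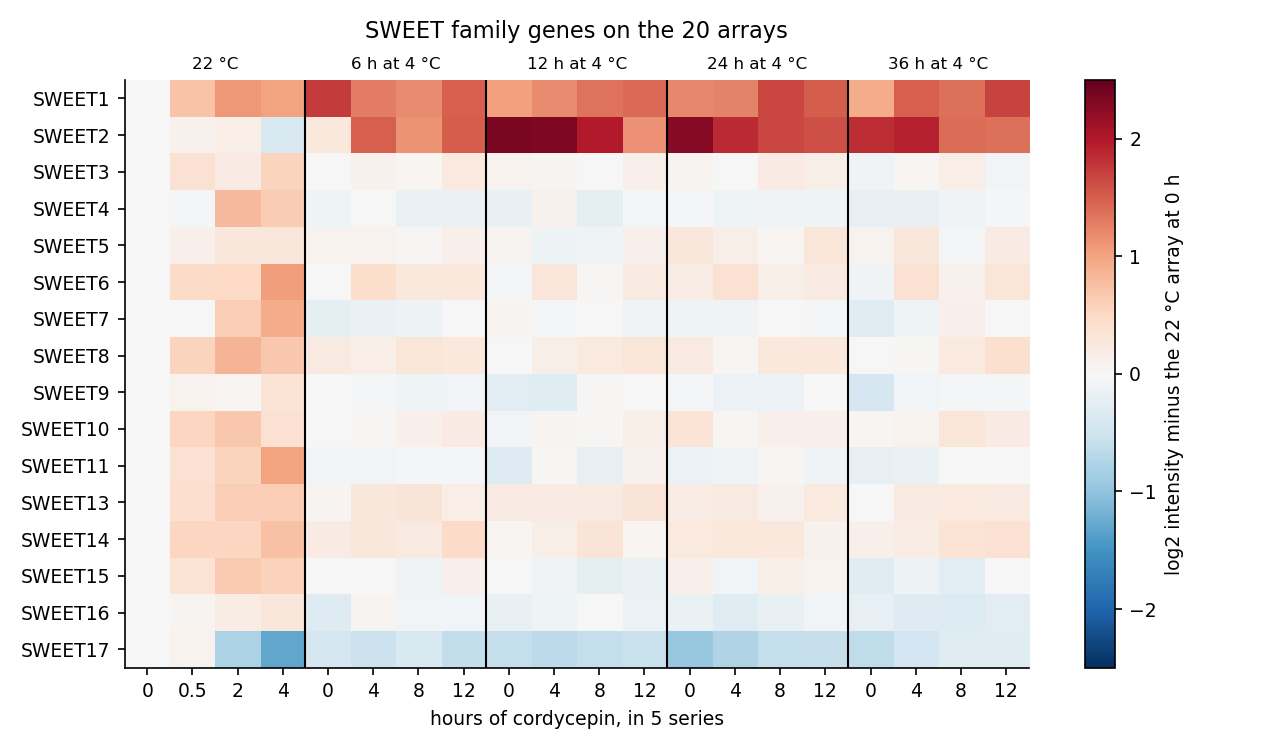
Log2 intensity of the 16 named SWEET genes minus the untreated 22 °C array (colour), one row per gene and one column per array, in 5 series by hours of cordycepin. SWEET5 and SWEET15 are AtVEX1 and SAG29 in the platform annotation. SWEET1 and SWEET2 stand higher in the cold, and SWEET17 falls at 22 °C.

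The other lists of sugar genes gave few measured genes, since the annotation names few of their members. None of the 9 sucrose carriers, 5 plastid exporters, 6 galactinol and raffinose enzymes or 12 hexokinases and trehalose phosphate synthases is named there. Of 21 sucrose-cleaving enzymes 2 are named, and 0 passed the filter. ATSPS4F was tested beside AT2G35840, a sucrose-phosphate phosphatase gene, and F2KP, the enzyme that makes and breaks fructose 2,6-bisphosphate, out of 12 genes of sucrose synthesis. The vacuolar sugar carriers TMT1 and TMT2 and the related carrier AT5G17010 passed out of 28, and the starch-breakdown enzymes PWD and DPE1 out of 11.

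Among these 7 other sugar genes, 0 had a fitted start higher in the cold and 4 had a lower one, against the 25.2% and 37.3% of all genes given above. Without the filter, SFP1 was the 1 of 10 named hexose and polyol carriers with a higher fitted start (0.80 ± 0.17 SE, limma adjusted p = 0.00129) and 2 had a lower one, against 14.2% and 23.7% of all genes. DPE1 had −0.64 ± 0.11 (SE; limma adjusted p = 2.14e-04) and TMT1 −0.55 ± 0.14 (adjusted p = 0.00426). The next enzyme after ATSPS4F, AT2G35840, had 0.06 ± 0.11 (adjusted p = 0.647), and F2KP had −0.04 ± 0.11. Centred on reference genes, DPE1 alone was lower (−0.30), and AT2G35840 and F2KP were higher (0.40 and 0.30). Beside these, the ATSPS4F difference was 2.22 as deposited and 2.56 centred. The difference between the 2 enzymes was not tested.

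After cordycepin at 22 °C, 6 of the 7 rose, AT5G17010 by 0.37 and DPE1 by 0.28 log2 units per hour the most, and 5 of the 7 had a lower slope in the cold. Under anchored slopes AT5G17010 alone rose (0.10), and TMT1 and TMT2 fell by 0.13 and 0.15. Of the slope differences AT5G17010 alone was then lower (−0.13, limma adjusted p = 0.0113), TMT2 was higher (0.14, adjusted p = 0.0260) and the other 5 did not pass. As deposited, SWEET1 passed both of these tests in the same direction, and SWEET2 and ATSPS4F passed neither. The splits over all genes at 22 °C were 1641 rising and 2682 falling as deposited, 2042 and 2000 with quantile normalisation, and 73 and 5952 anchored. For the slope difference they were 2577 higher and 1495 lower, 2082 and 1867 centred on reference genes, 1943 and 1855 with quantile normalisation and 5541 and 99 anchored. For the 6 h and 12 h cold slopes, reference genes turned 317 rising and 251 falling into 364 and 174, and 787 and 504 into 237 and 633.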

How the data were processed

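The 20 ATH1 arrays were grouped by their titles into 20 conditions of 1 array each. The deposited values are probe set intensity on a linear scale, made by the authors with RMA in affy, per the submitters' processing notes, with no version given in the sources used here. Log2 was taken with no pseudocount. Of 22810 probe sets, the platform table names 1 gene for 13513, several for 503, and 8794 are unnamed here. Of the first, 13436 matched RefSeq's TAIR10.1 genes. The brightest probe set stood for a gene, and a gene needed 2 arrays at or above the table median, 61.39 (log2 5.94). Fits used limma 3.58.1 in R 4.3.3 (lmFit, eBayes with a trend), two-sided, with Benjamini-Hochberg adjustment over all 6962 genes and a threshold of 0.05. They were tested on simulated data. The lone 22 °C array was assumed to vary like the cold arrays. With 1 array per condition, p-values measure scatter between single arrays, not between cultures. The number of arrays limits the precision.

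The 3 genes, the gene lists and the tests were chosen with earlier results of these data known. Named genes are these 3, the 3 others most correlated with each, and per list of sugar genes the measured members of largest change. Results were recomputed with quantile normalisation, with centring on 7 reference genes, with a pseudocount of 16, without the filter, with a minimum at the 60th percentile of mean levels, without the eBayes trend, with probe sets of a gene averaged, without the 0 h arrays, with anchored slopes, with the matched 4 h change, and with each array left out in turn. Scalings of the SWEET family and the hexose carriers without the filter were added after seeing the data. Tables and plots used Python 3.11.15, numpy 2.4.6, pandas 2.3.3 and matplotlib 3.10.9.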

Additional observations from a re-analysis of the deposited data

Results flagged for a closer look

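Differences between series passed their own test for 4 results. The SWEET1 slope after cordycepin was lower in the cold than at 22 °C, by −0.181 log2 units per hour. This call was lost without any of 12 of the 20 arrays, and the difference took the opposite sign with anchored slopes. The SWEET2 fitted starts spanned 1.96 log2 units among the cold series, lowest after 6 h and highest after 12 h of cold. The ATSPS4F fitted starts spanned 3.41 log2 units in the same order, and its slopes spanned 0.539 log2 units per hour, from a fall in the 12 h series to a rise in the 6 h series. SWEET2 and ATSPS4F passed the filter only through their cold arrays, so these spans are descriptions. The residual SD of ATSPS4F about its lines, 0.641, was larger than that of 99.4% of genes, and its part in these results was not tested.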

How the results depend on the processing

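Dropping the filter, eBayes without trend, quantile normalisation and the mean of probe sets changed the direction or call of 0 of 30 results, and a minimum at the 60th percentile of mean levels removed all 3 genes and gave no value. Each of the 3 genes has 1 probe set, so the mean of probe sets leaves their own values as they were and is no check of them. Reference-gene centring changed 1 result, the ATSPS4F 24 h slope (−0.00703), and the pseudocount 1, the SWEET1 slope difference (−0.138, lost). Without the 0 h arrays, SWEET1 lost its start difference (0.412), 22 °C slope (0.0769) and slope difference (−0.0485), and its 6 h slope turned to 0.0258. SWEET2 then lost its difference among starts (1.68), and ATSPS4F those among starts (4.12) and slopes (0.524) and its 12 h slope (−0.108). The matched 4 h change gave SWEET1 −0.931 (lost). Anchoring the slopes turned SWEET1 at 22 °C (−0.0704), after 12 h (−0.0214) and 24 h (−0.0016), and its slope difference (0.048), and made its 6 h slope pass (−0.081). It turned ATSPS4F at 22 °C (−0.144), its slope difference (0.0955) and 24 h slope (−0.0313). It made SWEET2 pass at 22 °C (−0.379), in its slope difference (0.302) and after 24 h (−0.0906) and 36 h (−0.0869). Anchoring called 5952 of all 6962 genes falling at 22 °C and 5541 higher in the slope difference. It called 5378, 2071 and 2773 falling in the 6, 24 and 36 h series. With each array left out in turn, SWEET1 had start differences of 0.444 to 1.02, 22 °C slopes of 0.0769 to 0.477, slope differences of −0.452 to −0.0519 and 6 h slopes of −0.0698 to 0.0258. SWEET2 had level differences of 1.47 to 2.16, ranges of 1.20 to 2.43 among starts and 0.103 to 0.235 among slopes, 22 °C slopes of −0.150 to 0.0759, slope differences of −0.105 to 0.120, 6 h slopes of 0.00358 to 0.107 and 12 h slopes of −0.150 to −0.0445. ATSPS4F had 22 °C slopes of −0.239 to 0.282, slope differences of −0.283 to 0.238, ranges among slopes of 0.394 to 0.669, 6 h slopes of 0.223 to 0.417, 12 h slopes of −0.292 to −0.108 and 24 h slopes of −0.0957 to 0.0317. The cause of these changes was not tested. Over all genes, the 7 calls in levels became 0 without the trend or with the pseudocount, and 0 to 87 with an array left out. The 193 differences among slopes became 94 without the trend, 123 with no filter, 304 with quantile normalisation, 1 without the 0 h arrays and 0 to 806 with an array left out, and the 2463 among starts became 207 without the 0 h arrays and 814 to 3523 with an array left out. Calls in the 6, 12, 24 and 36 h slopes ran with an array left out from 2 to 1291, 0 to 2236, 0 to 645 and 0 to 660. No paired analysis was possible because each condition has 1 array.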

Other observations

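SFP1 and SFP2, sugar carriers of the ERD6-like group, were named after their values were seen. Neither passed the filter on low values, so their tests come from the fit without it. SFP1 was at log2 3.77 to 4.31 at 22 °C and at 3.93 to 5.25 in the cold, where 15 of 16 arrays were above all 22 °C arrays. The exception was the untreated 6 h cold array, at 3.93, the time at which SWEET2 and ATSPS4F were also near their 22 °C levels. The SFP1 fitted start was higher in the cold by 0.80 ± 0.17 (SE; limma adjusted p = 0.00129), and by 1.13 centred on reference genes and 0.83 with quantile normalisation. SFP2 was at 3.95, 4.12, 4.45 and 4.69 over the 22 °C cordycepin course and at 3.77 to 4.15 in the cold. Its fitted start difference was −0.11 ± 0.09 (limma adjusted p = 0.369). Its slope at 22 °C was 0.18 ± 0.04 as deposited (adjusted p = 7.03e-04) and −0.07 with anchored slopes (adjusted p = 0.0996). Both genes lie under the table median on all 20 arrays.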
